A study of Mus musculus with 8 samples.

Results

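The genes of MHC class I antigen processing and presentation were examined in cultured mouse osteoblasts labelled as lacking Lrp5 and in their controls. Members were chosen by gene name alone. They are every probe annotated to a class I heavy chain gene of the H2-K, H2-D, H2-Q, H2-T or H2-M series, and every probe of 18 named genes that make, load or regulate class I molecules. This gave 54 of 25697 probes, for 41 genes, of which 28 probes were for 23 heavy chain genes. No measured value entered that choice, but the group was proposed with the knockout against control comparison already known. Its changes and their p-values are therefore given as a description of these arrays.

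Class I molecules carry short peptides from inside the cell to its surface, where cytotoxic T cells and natural killer cells read them. The proteasome cuts proteins into peptides, the TAP transporter moves them into the endoplasmic reticulum, and chaperones fit them to a heavy chain paired with the light chain beta-2-microglobulin. Interferons raise the expression of most of this machinery, and replace catalytic subunits of the proteasome by those of the immunoproteasome. Most nucleated cells, osteoblasts included, carry class I molecules.

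The series holds 8 arrays of primary calvarial osteoblasts of C57Bl/6 background on day 7 of differentiation, 4 with the genotype Lrp5-/- (called knockout-labelled here) and 4 with Lrp5+/+ (control). Lrp5 is a coreceptor for Wnt ligands. Every culture was differentiated with ascorbic acid at 50 ug/ml plus 10 mM of beta-glycerol phosphate. The labels also give an adenovirus carrying either Cre recombinase or green fluorescent protein, added 48 hours before differentiation began, without assigning either virus to a group, so genotype and virus cannot be told apart here. Nothing states that replicate arrays were made from different mice or dishes. The p-values thus reflect array-to-array spread only, and that spread may be technical.

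Between 9685 and 10363 probes were detected per array. The Lrp5 probe lay near background in both groups, with a mean of 5.54 ± 0.12 log2 over the controls and 5.87 ± 0.26 over the knockout-labelled arrays (SD, n = 4 each), and was detected on 1 and 2 of them. It did not check the labels, and every direction below rests on them. Of 9 osteoblast markers on the array 6 passed the detection filter, among them Col1a1 at 12.71 ± 0.12 and 12.87 ± 0.12 log2 and the transcription factor Sp7 at 9.48 ± 0.31 and 9.64 ± 0.08, while Bglap was not detected on any array. The 6 had a median change of 0.16, all above 0 and 0 called, which is the direction of the class I genes. For Sparc this held for the probe used, at 0.04, while its other detected probe changed by -0.06. Col1a2 stood 0.34 higher without overlap (limma adjusted p = 0.0561), and Ibsp, detected on 1 control array and on 4 of the others, stood 0.58 higher (0.07). The summed linear signal of the osteoblast markers was 30793 to 33626 in control and 32292 to 35566 in knockout-labelled arrays. Of 11 macrophage and osteoclast markers 7 passed, with a median change of -0.21 and 5 of the 7 below 0. None of them was called in either direction, where 8.62% of all genes tested were. Adgre1, a macrophage surface marker, stood at 9.68 ± 0.14 and 9.42 ± 0.12, and the leukocyte marker Ptprc was not detected. The summed signal of the macrophage and osteoclast markers was 6160 to 6829 in control and 6148 to 6713 in knockout-labelled arrays, on the linear scale. Ctsk, the brightest of these markers, weighs most in that sum and went the other way from most of them. It stood 0.17 higher without overlap, at 11.70 ± 0.09 and 11.88 ± 0.02 log2 (limma adjusted p = 0.1135), so similar sums do not show similar macrophage content. None of 8 lymphocyte or 6 endothelial markers passed. The part of other cells, or of the shift of osteoblast markers, in the class I values was not tested.

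Class I pathway genes stood higher in the knockout-labelled arrays, by small amounts. A gene was called at an adjusted p under 0.05 in a limma fit of 7041 genes, each represented by its brightest probe. Of the 25 member genes that passed the detection filter, 7 rose and 0 fell, beside a background of 8.62% of all genes tested called, 3.54% higher and 5.08% lower. The 7 were the immunoproteasome subunits Psmb9 and Psmb10, the heavy chains H2-T23 and H2-K1, the class I-like Cd1d1, the transporter subunit Tap2 and the proteasome activator Psme1. Their signal ratios lay between 1.17 for Psme1 and 1.35 for H2-T23 and Psmb9. The median change over the 25 genes was 0.23 log2, and 0.00 over all genes tested. All 25 changes were above 0, from 0.02 to 0.43, where 50% of all genes tested were. Mr1, among them, met the filter with detection on 1 control and 3 knockout-labelled arrays. With detection required on all 8 arrays, 23 of 23 members were above 0. With no detection filter, 33 of 41 were above 0 and 8 below. The 4 knockout-labelled values lay above the 4 control values for 9 of the 25, where that held for 7.54% of all genes tested (16.8% counting either direction). Since the arrays measure bulk RNA, more cells of a type and more RNA per cell cannot be told apart.

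**Figure D1:**
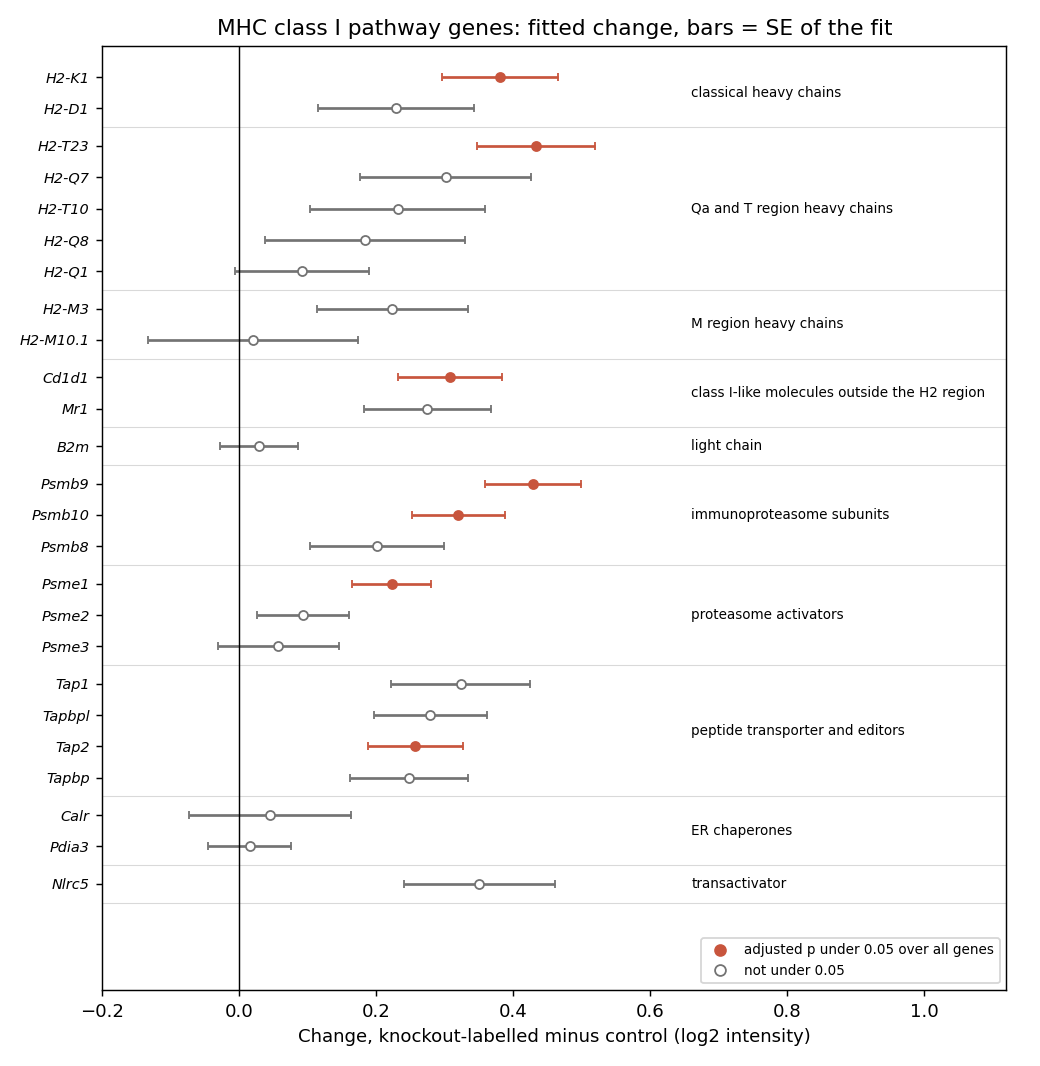
Change of each of the 25 member genes that passed the detection filter, knockout-labelled minus control, in log2 intensity on the horizontal axis, grouped by role; bars are the standard error of the limma fit (n = 4 arrays a group). Filled points mark the 7 genes under an adjusted p of 0.05; B2m, Calr and Pdia3 sit near 0 and Psmb9 and H2-T23 farthest to the right.

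Among the classical heavy chains, which present peptides to cytotoxic T cells, H2-K1 rose and H2-D1 did not pass. The H2-K1 probe read 8.36, 8.37, 8.25 and 8.61 log2 on the control arrays and 8.73, 8.83, 8.68 and 8.88 on the knockout-labelled arrays. Every knockout-labelled value was above the highest control value, which was that of control array 4. The difference was 0.38 (SE 0.08; limma adjusted p = 0.0234), and a second H2-K1 probe differed by 0.49 (SE 0.09 in the fit of single probes). H2-D1 read 9.41, 9.12, 9.09 and 9.64 in control and 9.57, 9.53, 9.46 and 9.62 in knockout-labelled arrays. Its groups overlapped, control array 4 being the highest of all 8, and the difference was 0.23 (SE 0.11; adjusted p = 0.236). H2-K1 fell short of the threshold when control array 1, 2 or 3 was left out, or knockout-labelled array 2 or 4 (adjusted p up to 0.0636), or when undetected probes were kept (0.0538), and H2-D1 passed without control array 4 (0.0418).

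Stretches upstream of 3 heavy chain genes are shown because they hold, in the same order, the letters of 3 elements through which class I promoters are known to be read. They come from RefSeq windows of GRCm38.p6, which span 250 bases before to 50 after each annotated start, and run 5′ to 3′ on the gene's strand. Capitals mark, from left to right, the NF-kB element of enhancer A, the reverse complement of GAANTGAAA (a form of the interferon-stimulated response element, ISRE) and TGACG (the core of a cyclic AMP response element). The H2-K1 stretch is chr17:34000364-34000473 on the minus strand, that of H2-D1 chr17:35262908-35263017 and that of H2-Q7 chr17:35439007-35439116, both on the plus strand.
H2-K1: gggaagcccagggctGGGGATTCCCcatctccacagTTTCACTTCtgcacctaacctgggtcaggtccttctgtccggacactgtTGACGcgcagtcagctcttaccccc
H2-D1: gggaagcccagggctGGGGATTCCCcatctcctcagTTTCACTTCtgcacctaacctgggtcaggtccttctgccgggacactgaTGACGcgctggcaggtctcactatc
H2-Q7: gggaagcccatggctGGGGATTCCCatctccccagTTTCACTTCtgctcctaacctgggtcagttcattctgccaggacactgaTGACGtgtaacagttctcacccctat

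In a global alignment the H2-K1 stretch was 90% identical to that of H2-D1 and 83.9% to that of H2-Q7, so these promoters are close copies and not independent examples. RefSeq windows were found for 32 of the 41 member genes, 35 windows in all, since some genes had 2. The enhancer A letters, those of the first run of capitals, searched on both strands, was in 4 of the 35 windows (2 of H2-K1, and those of H2-D1 and H2-Q7) and in 0.107% of 32851 windows of all genes. GAANTGAAA was in 6 of the 35, against 1.83% of all, TGACG in 18 against 20.8%, and CCAAT in 26 against 37.4%. By gene these were 5, 16 and 24 of 32, and 4, 11 and 13 of the 18 with a window that passed the detection filter. The windows are not independent, since paralogs are alike and those of Tap1 and Psmb9 share 275 bases. The interferon-gamma activated site TTCNNNGAA was in 3 of the 35, against 8.3%. A match is only a run of letters and shows no binding.

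The heavy chains of the Q and T regions were led by H2-T23, which encodes Qa-1, a ligand of inhibitory receptors on natural killer cells. Its probe read 10.81, 10.63, 10.82 and 11.04 log2 in control and 11.18, 11.35, 11.22 and 11.30 in knockout-labelled arrays, with no overlap. H2-T23 rose by 0.43 (SE 0.09; limma adjusted p = 0.015), and its second probe stood 0.40 higher. The call stood with any 1 array left out (adjusted p up to 0.046). H2-Q7, which encodes Qa-2, read 9.47, 9.15, 9.67 and 9.78 in control and 9.86, 9.80, 9.67 and 9.95 in knockout-labelled arrays. The groups overlapped, and the change of 0.30 (SE 0.12) did not pass in limma (adjusted p = 0.162; 0.0473 with no background correction, 0.0414 with 75th percentile scaling and 0.0478 in the authors' log2 table).

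The promoter of H2-T23 is shown for its different elements. In chr17:36032791-36032850 of GRCm38.p6, minus strand, capitals mark the reverse complement of the ISRE core, which reads GAAA, any 2 bases and GAAA again, and which neither H2-K1, H2-D1 nor H2-Q7 has in its window. The same core, on the forward strand, stands in chr2:122147523-122147582 upstream of B2m, which is shown for contrast because its change did not pass the test. B2m lies near the top of the array's range, and how far that limits its change was not tested.
H2-T23: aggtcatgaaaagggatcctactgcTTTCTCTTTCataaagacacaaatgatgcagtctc
B2m: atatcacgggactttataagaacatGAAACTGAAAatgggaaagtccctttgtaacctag

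That core was in 4 of the 35 member windows (B2m, Erap1, H2-T23 and Psme1) and in 3.44% of all windows. No member window held both it and GAANTGAAA.

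Of the other Q and T genes, H2-T10 changed by 0.23 (SE 0.13), H2-Q8 by 0.18 (SE 0.15) and H2-Q1 by 0.09 (SE 0.10), none past the threshold in limma (adjusted p = 0.281, 0.461 and 0.59). H2-T10 read 10.31, 10.30, 10.42 and 10.91 in control and 10.58, 10.77, 10.71 and 10.82 in knockout-labelled arrays. Control array 4 was again the highest of the 8, and without it H2-T10 passed (adjusted p = 0.0173). H2-M3, which presents formylated peptides of bacteria and mitochondria, read 8.47, 8.41, 8.43 and 8.84 in control and 8.63, 8.94, 8.84 and 8.63 in knockout-labelled arrays. The groups overlapped only through control array 4, and the change was 0.22 (SE 0.11; adjusted p = 0.233; 0.0476 without control array 4). H2-M10.1, of a family known from vomeronasal neurons, was near background with a change of 0.02 (SE 0.15; adjusted p = 0.954), with 3 of the controls and all knockout-labelled arrays above the detection limit. Heavy chain genes are close paralogs, and the probe sequences were not used here, so signal from one gene on another gene's probe was not tested.

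The other 14 heavy chain genes did not pass the detection filter. H2-Q2, H2-Q5, H2-Q10, H2-T3, H2-T24, H2-M1, H2-M2, H2-M9, H2-M10.2 to H2-M10.6 and H2-M11 were detected on 0 of 8 arrays. H2-T24, for example, read 4.69 to 5.25 log2 in control and 5.10 to 5.35 in knockout-labelled arrays, which are background signals. Over all members, 29 of 54 probes were detected on all 8 arrays, 22 on none and 3 on some.

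Cd1d1 and Mr1 encode class I-like molecules from outside the H2 region, which present lipids and small metabolites to specialised T cells. Cd1d1 read 6.96, 7.01, 6.97 and 7.17 log2 in control and 7.31, 7.21, 7.34 and 7.48 in knockout-labelled arrays. The groups did not overlap, and Cd1d1 rose by 0.31 (SE 0.08; limma adjusted p = 0.0343). It missed the threshold when control array 1, 2 or 3 was left out, or knockout-labelled array 1, 3 or 4 (adjusted p up to 0.0876), or when undetected probes were kept (0.0729). Mr1, detected on 1 control array and on 3 of the others, changed by 0.27 (SE 0.09; adjusted p = 0.0962), a difference close to background that is not exact.

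The light chain B2m, the partner of class I heavy chains, did not pass the test. Its probe read 14.86, 14.76, 14.86 and 14.83 log2 in control and 14.83, 14.86, 14.80 and 14.93 in knockout-labelled arrays, with the groups fully mixed. The change was 0.03 (SE 0.06; limma adjusted p = 0.802), and a second bright probe changed by 0.05. Both values come after normalization by quantiles. With 75th percentile scaling, which does not equalize quantiles, the B2m change was 0.11 (SE 0.05) and did not pass either (limma adjusted p = 0.144). How far normalization by quantiles limits B2m was not tested. The used probe was 9th to 22nd from the top of 25697 on each array, with raw intensities of 26101 to 33861. How far the top of the array's range limits B2m was not tested. The remaining B2m probe was detected on no array.

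**Figure D2:**
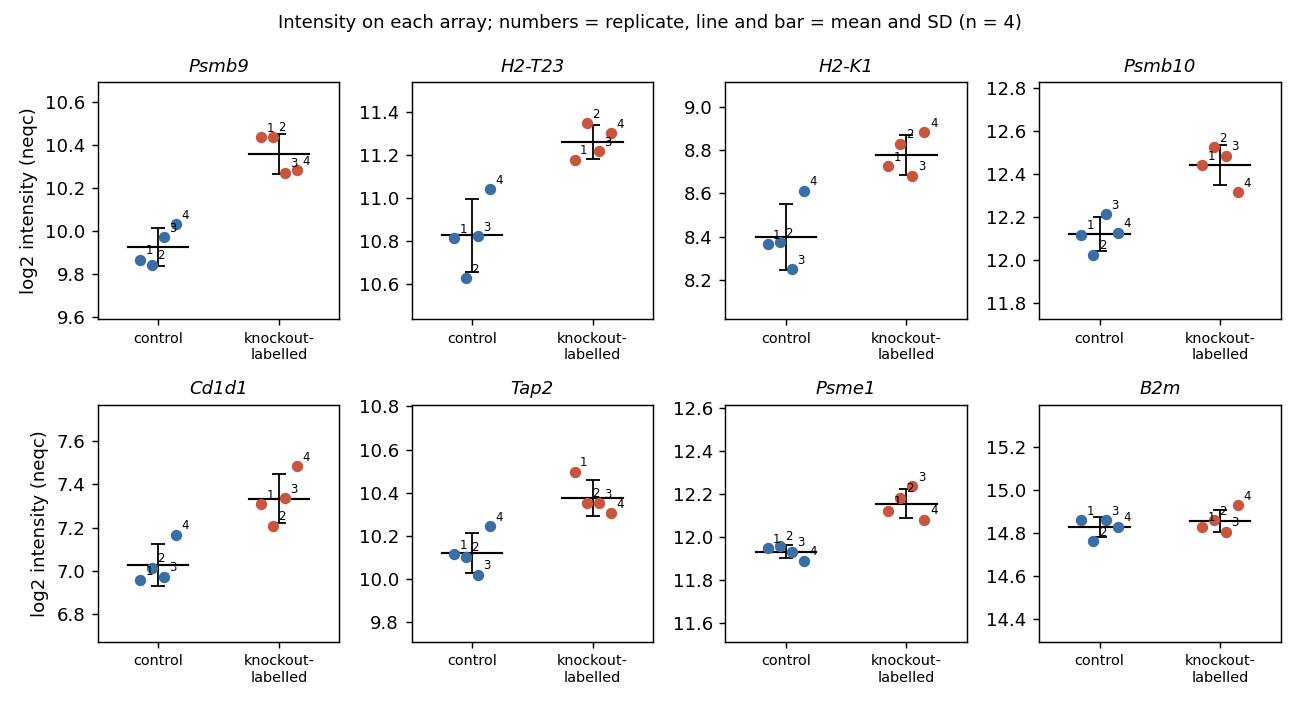
Intensity (log2 after neqc) on each of the 8 arrays for the 7 genes that rose and for B2m; each panel spans the same height in log2, numbers are replicate numbers, and the line and bar are the mean and SD (n = 4). The groups are apart in the 7 panels of genes that rose and mixed for B2m, and control array 4 is the highest control in 5 of the 7.

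The immunoproteasome subunits gave the largest called change of the peptide-making genes. Psmb9 read 9.87, 9.84, 9.97 and 10.03 log2 in control and 10.44, 10.44, 10.27 and 10.28 in knockout-labelled arrays. All knockout-labelled arrays were above all controls, and Psmb9 rose by 0.43 (SE 0.07; limma adjusted p = 0.00602), a signal ratio of 1.35. Psmb10 read 12.12, 12.03, 12.21 and 12.13 in control and 12.44, 12.52, 12.48 and 12.31 in knockout-labelled arrays. It rose by 0.32 (SE 0.07; adjusted p = 0.019), and its second probe stood 0.29 higher, also without overlap. Psmb8 read 8.34, 8.38, 8.38 and 8.68 in control and 8.53, 8.83, 8.72 and 8.50 in knockout-labelled arrays. Control array 4 lay within the knockout-labelled range, and the change of 0.20 (SE 0.10) did not pass (adjusted p = 0.227). The call of Psmb9 stood with any 1 array left out (adjusted p up to 0.0245), while Psmb10 missed the threshold when control array 2 was left out, or knockout-labelled array 2 or 3 (up to 0.0582).

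The constitutive subunits whose places these take did not pass. Psmb6, replaced by Psmb9, changed by -0.11 (SE 0.08) and Psmb7, replaced by Psmb10, by -0.10 (SE 0.06; limma adjusted p = 0.386 and 0.314). Fainter probes of Psmb7 changed by 0.01 and -0.26, and only its brightest probe is used below. Psmb5, replaced by Psmb8, changed by -0.01 (SE 0.12; adjusted p = 0.962), and its sign turned on leaving out control array 2, or knockout-labelled array 2 or 4, and with array weights. Set against its constitutive counterpart on the same array, Psmb9 shifted by 0.54 log2 and Psmb10 by 0.42, each without overlap between the groups, and Psmb8 by 0.21 with overlap. Psmb9 and Psmb10 did not overlap on their own either, so their separation here is not a further result. Part of each shift comes from Psmb6 and Psmb7, whose changes did not pass. The share of other gene pairs without overlap was not computed. Of 14 constitutive proteasome genes that passed the filter, 0 were called, beside 8.62% of all genes tested. Of these 14, 12 were below 0 and the changes ran from -0.12 to 0.03 with a median of -0.04.

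**Figure D3:**
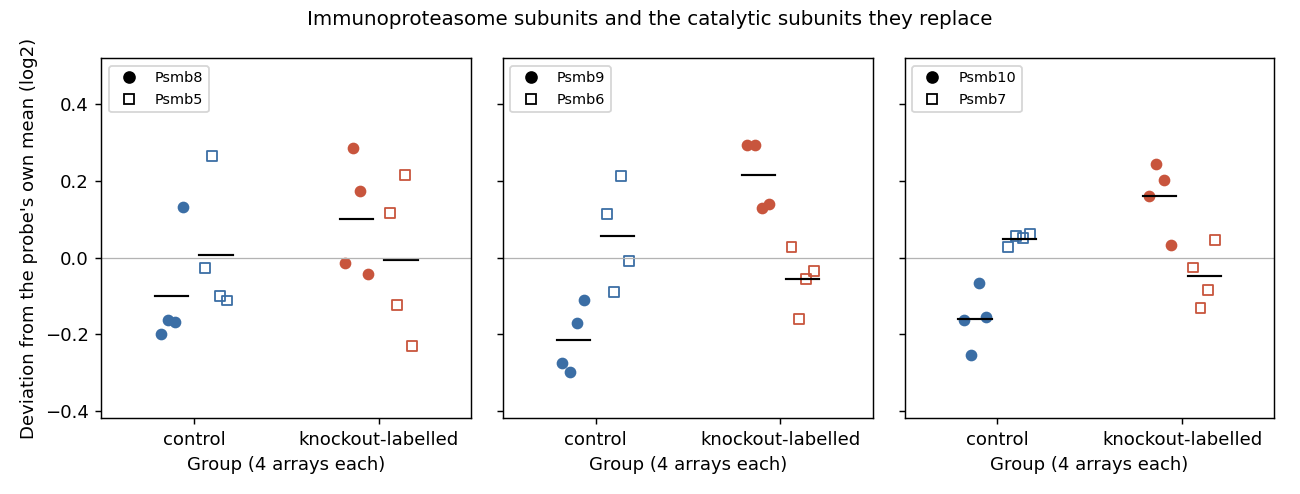
Deviation of each probe from its own mean over the 8 arrays (log2) for the immunoproteasome subunits (filled circles) and the constitutive subunits they replace (open squares), by group of 4 arrays; lines are group means. For Psmb9 with Psmb6 and Psmb10 with Psmb7 the group means of circles differ by 0.43 and 0.32, and those of squares, which did not pass the test, by -0.11 and -0.10, and for Psmb8 with Psmb5 the groups overlap.

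Psme1 and Psme2 encode the alpha and beta subunits of the interferon-inducible proteasome activator PA28, and Psme3 the nuclear PA28-gamma. Psme1 read 11.95, 11.96, 11.93 and 11.89 log2 in control and 12.12, 12.18, 12.24 and 12.08 in knockout-labelled arrays, without overlap. It rose by 0.22 (SE 0.06; limma adjusted p = 0.0404), while its second probe stood 0.17 higher with overlapping groups. That call was lost on leaving out any 1 array except knockout-labelled array 4 (adjusted p up to 0.1), with undetected probes kept (0.0789) and with the mean of its probes (0.0573). Psme2 changed by 0.09 (SE 0.07) and Psme3 by 0.06 (SE 0.09), neither past the threshold (adjusted p = 0.407 and 0.731).

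The transporter subunits Tap1 and Tap2 and the peptide editors Tapbp (tapasin) and Tapbpl (TAPBPR) lay between 0.25 and 0.32 log2 higher, and 1 of the 4 was called. Tap2 read 10.12, 10.10, 10.02 and 10.25 in control and 10.50, 10.35, 10.35 and 10.31 in knockout-labelled arrays, without overlap. It rose by 0.26 (SE 0.07; limma adjusted p = 0.0475), close to the threshold. The call was lost without any array but control array 4 (adjusted p up to 0.115), with detection on at least 1 array (0.0592) and with undetected probes kept (0.0968).

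Tap1 read 8.09, 8.09, 8.28 and 8.55 log2 in control and 8.63, 8.52, 8.66 and 8.49 in knockout-labelled arrays. Control array 4 was above 2 of the knockout-labelled arrays, and the change of 0.32 (SE 0.10) did not pass (limma adjusted p = 0.0764). Tapbpl changed by 0.28 (SE 0.08; adjusted p = 0.0639) and Tapbp by 0.25 (SE 0.09; adjusted p = 0.101), both without overlap. The second probe of Tapbp differed by 0.39, and a fainter probe of Tapbpl by 0.10. Without control array 4, Tap1 passed at 0.0117 and Tapbpl at 0.0299. Both also passed without background correction, under the normexp correction, after scaling to the 75th percentile, in the authors' log2 table, with array weights and with a trended and robust prior (Tap1 0.0184 to 0.0472, Tapbpl 0.0276 to 0.0453). Tapbp did so with no background correction, 75th percentile scaling, the authors' log2 table and the trended prior (0.0278 to 0.0308).

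Tap1 and Psmb9 are shown together because they are read outward from a single stretch of chromosome 17. In GRCm38.p6 their annotated starts lie 225 bases apart, Psmb9 on the minus strand and Tap1 on the plus strand, and Psmb8 and Tap2 are the next protein-coding genes after Tap1. The bases between the starts, chr17:34187331-34187555, follow on the strand of Tap1, with CCAAT and TGACG in capitals.
Tap1: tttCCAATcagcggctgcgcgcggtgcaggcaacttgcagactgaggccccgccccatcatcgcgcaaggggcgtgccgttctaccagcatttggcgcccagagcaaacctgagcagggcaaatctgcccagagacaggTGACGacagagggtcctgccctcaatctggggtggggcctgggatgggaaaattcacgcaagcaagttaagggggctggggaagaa

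On either side of this stretch the fitted changes were 0.32 for Tap1 and 0.43 for Psmb9, and the difference between them was not tested. Of the non-member genes annotated as protein-coding on chromosome 17 between Tapbp and H2-M2, the outermost members of the H2 region that have a place there, 57 were tested. Of these 3 rose and 4 fell, close to the shares of all genes tested (3.54% higher and 5.08% lower), with a median change of -0.03. The 12 tested members that the same annotation places in that interval had a median of 0.25, with 4 called higher. Members it does not place there were left out of this count. The 3 risers were Cfb and C2, complement components, by 0.49 and 0.35, and Ier3 by 0.24 (limma adjusted p = 0.00554, 0.0164 and 0.0383). The 4 that fell were D17H6S56E-5, Tcf19, Lst1 and Wdr46, with changes of -0.47, -0.38, -0.33 and -0.32 (limma adjusted p = 0.0235, 0.0112, 0.0121 and 0.0364). These risers and fallers were named after their values were seen.

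Nlrc5, the transactivator that drives class I heavy chain, B2m and Tap1 genes, read 7.34, 7.57, 7.64 and 7.92 log2 in control and 8.06, 7.998, 7.97 and 7.85 in knockout-labelled arrays. Only knockout-labelled array 4 fell below the highest control, control array 4. The change was 0.35 (SE 0.11) and did not pass (limma adjusted p = 0.0759). It passed without control array 4 (0.0141) and under the same 6 other settings as Tap1 (0.0231 to 0.0469).

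The chaperones of the endoplasmic reticulum that assemble class I molecules, and much else, did not pass. Calr (calreticulin) changed by 0.04 (SE 0.12) and Pdia3 (ERp57) by 0.02 (SE 0.06; limma adjusted p = 0.855 and 0.905). Calr read 11.12, 11.16, 11.23 and 11.33 in control and 11.07, 11.05, 11.28 and 11.62 in knockout-labelled arrays, so that the knockout-labelled arrays held both its lowest and its highest values. Canx (calnexin) and both probes of Erap1, the aminopeptidase that trims peptides, were detected on 0 of 8 arrays. Of 15 further genes of peptide supply and quality control in the endoplasmic reticulum, 0 were called, beside 8.62% of all genes tested, and the median change was 0.02.

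Control array 4 stood apart from the other controls over these genes. It was the highest of the 4 controls for 19 of the 25 member genes, where it was so for 26.9% of all genes tested. The median deviation of the 25 genes from their own means was -0.19, -0.18 and -0.11 log2 on control arrays 1, 2 and 3, 0.08 on control array 4, and 0.09 to 0.13 on the knockout-labelled arrays. Without control array 4, 12 of 25 members rose and the median change was 0.30. The share of all genes called moved too, to 10.2% in that fit (326 higher) from 8.62%. Psme1 then lost its call (adjusted p = 0.0631), and H2-D1, H2-M3, H2-T10, Nlrc5, Tap1 and Tapbpl passed. The other omissions lowered the count, to 3 without control array 1, 2 of 24 without control array 2 and 3 without control array 3. It was 4 and 3 of 24 without knockout-labelled array 1 and 2, 3 of 25 without array 3 and 4 of 24 without array 4. Over these 7 fits 4.47% to 6.96% of all genes were called, 134 to 210 genes being called higher. In each of these fits 0 members were called lower, though 1 or 2 changes were below 0 in 4 of the 8, those lacking control array 1 or 2, or knockout-labelled array 1 or 4.

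**Figure D4:**
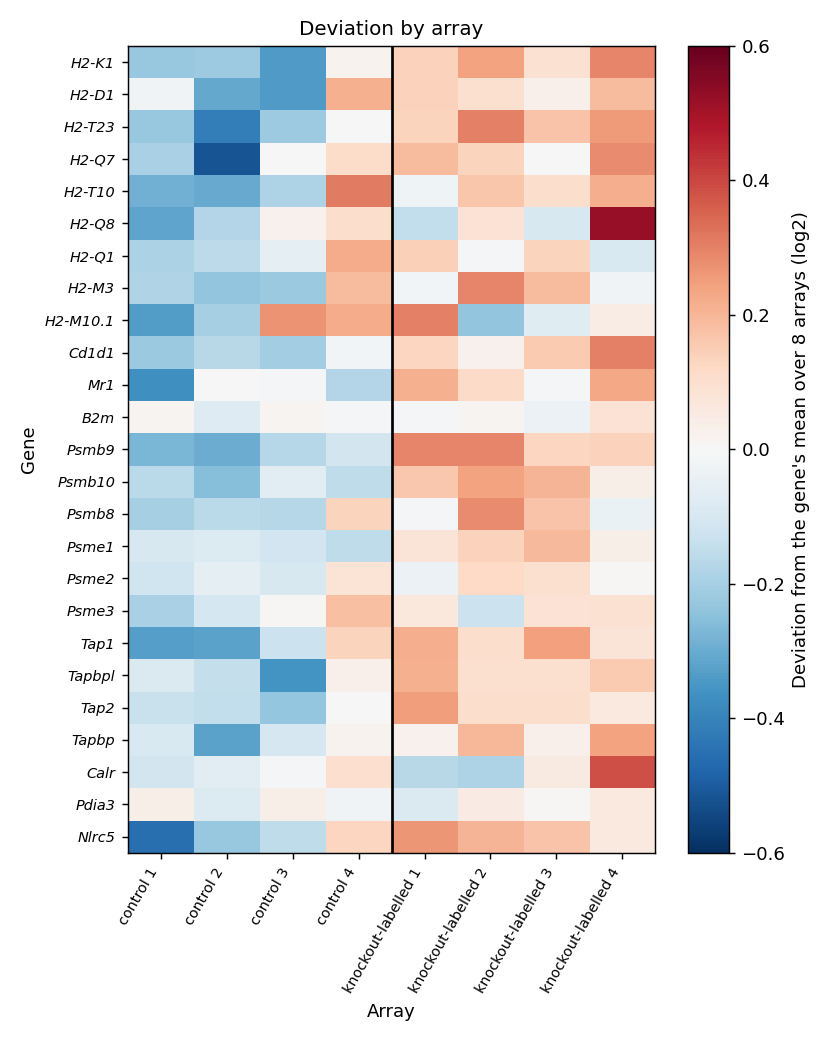
Deviation of each of the 25 member genes (vertical) from its own mean over the 8 arrays (horizontal), in log2 intensity; red is above and blue below the mean, and the black line parts control from knockout-labelled arrays. Control arrays 1 to 3 are mostly blue and control array 4 mostly pale or red, its median deviation being 0.08 against -0.19 to -0.11 for the other controls.

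Genes that carry the interferon signal to class I promoters were compared through lists chosen with earlier results known. Of 14 measured, 3 rose and 0 fell, with a median change of 0.17, where 3.54% of all genes tested were called higher and 5.08% lower. The transcription factor Irf7 rose by 0.39 (SE 0.09), the interferon-gamma receptor subunit Ifngr1 by 0.33 (SE 0.06) and the kinase Jak2 by 0.24 (SE 0.06; limma adjusted p = 0.0249, 0.0132 and 0.0406). Irf7 read 9.32, 9.29, 9.22 and 9.44 in control and 9.79, 9.91, 9.62 and 9.53 in knockout-labelled arrays, which did not overlap. Irf1, which binds ISRE elements of class I genes, changed by 0.11 (SE 0.06; adjusted p = 0.322), and its fainter probes by 0.035 to 0.21. Ifng was detected on no array. Ifnb1, which encodes interferon beta, was detected on all 8 and changed by 0.12 (SE 0.13; adjusted p = 0.611), with overlapping groups. Irf7 missed the threshold when control array 1, 2 or 3 was left out, or knockout-labelled array 1 or 2 (adjusted p up to 0.0678), or when undetected probes were kept (0.0574). Jak2 lost its call without any 1 of the 8 arrays (0.051 to 0.103), with detection on at least 1 array (0.0506) and with undetected probes kept (0.0807).

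Other factors that bind class I promoters showed 0 calls among 8 measured, such as Rela at 0.03, Nfkb2 at 0.22 and Rfxap at -0.17, and a median of -0.02. Over all genes tested 8.62% were called, so 0 of 8 is near that share. Of 7 ligands and receptors in the list of other class I-like genes 2 passed the filter, Fcgrt at 0.05 and Hfe at -0.19, and 0 were called. In the class II pathway the direction was opposite for its 1 called gene. Cd74, the class II invariant chain, read 9.13, 8.93, 9.14 and 9.12 log2 in control and 7.43, 7.14, 7.17 and 7.63 in knockout-labelled arrays, and fell by 1.74 (SE 0.11; limma adjusted p = 1.91e-05). It was 1 of 5 class II genes that passed the filter, and the class II transactivator Ciita and the chains H2-Aa and H2-Eb1 were detected on no array. H2-Ab1, detected on 2 controls and on 3 of the other arrays, differed by 0.50 (SE 0.17; adjusted p = 0.102).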

How the data were processed

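The authors' table holds, per the file headers, linear signal intensity and a detection value of 25697 Illumina probes on each array; per the submitters' processing notes the tool was GenomeStudio. The deposited detection p-value column increased with brightness (lowest Spearman correlation 0.979), so 1 minus it was used. The intensities were not normalized. A second deposited table held log2 values with the same quantiles on every array, ranking the probes of each array as the intensities do; it served as an alternative, and the sources used here do not give how its scale was set.

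The neqc function of limma 3.58.1 in R 4.3.3 corrected background and normalized by quantiles (offset 16). A probe was kept if 4 or more of the 8 arrays gave it a detection p under 0.01. The platform annotation gave 23978 probes 1 symbol, 0 several and 1719 none; unnamed probes stayed out of the tests. The brightest probe on average stood for each gene. Groups were compared with lmFit and eBayes without covariates, with Benjamini-Hochberg adjustment over all 7041 genes. The fit was tested on simulated data, where recovery was required only of changes larger than those of any member, so it says nothing of power for these. Changes are knockout-labelled minus control. The number of arrays limits the precision, and 0 of 28 array pairs held identical values.

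The members, 10 other gene lists, the tests and the alternatives were chosen with earlier results of these data known. Every member that passed the filter is named; of the other lists, those called (at most 6 a list) and a fixed few. Adgre1, Bglap, Col1a2, Ctsk, Ibsp, Sparc, Ifng, Ifnb1, Rela, Nfkb2, Rfxap, Fcgrt, Hfe, Ciita, H2-Aa, H2-Eb1 and H2-Ab1 were named after their values were seen. Csf1r, among the fixed few, was not analysed here.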

Additional observations from a re-analysis of the deposited data

Results flagged for a closer look

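Single arrays far from the other 3 of their group were looked for in the 32 member probes that passed the filter, 64 groups in all with Dixon's test. It marked 3, and chance marks about 1 group in 20. H2-M3 stood at 8.84 log2 on control array 4, against 8.41 to 8.47 on the other controls. Psmb8 stood at 8.68 on control array 4, against 8.34 to 8.38 on the others. Psme3 stood at 8.57 on knockout-labelled array 2, against 8.76 to 8.79 on the others.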

How the results depend on the processing

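Of 607 genes called, 249 were higher and 358 lower. The count over all genes was 979 with no background correction, 956 with 75th percentile scaling, 971 in the authors' log2 table, 965 with a trended and robust prior and 376 with no detection filter. The members called higher numbered 12, 12, 12, 11 and 3 under the same settings. With 1 array left out, the count over all genes ran from 310 (without control array 2) to 708 (without control array 4), and that of members from 2 to 12. The former was 352 or 315 without control array 1 or 3, and 400, 341 and 396 without knockout-labelled arrays 1, 2 and 3. No member was called lower under any setting run, and the members' median stayed between 0.18 and 0.30. Leaving out 1 array turned the sign of small uncalled changes: the range was -0.0886 to 0.1131 for H2-M10.1, -0.011 to 0.0459 for Pdia3, -0.0758 to 0.1141 for Calr and -0.0857 to 0.0743 for Psmb5. With array weights Psmb5 stood at 8e-04. With the replicate number as a block (replicate block), 408 genes and 5 members were called; Psme1, Tap2, Irf7 and Jak2 were not (adjusted p = 0.0827, 0.0911, 0.0538 and 0.0917). Same-numbered arrays shared little (correlations of their deviations from -0.03 to 0.09, and 1 of 4 control arrays correlated best with its own number), so the numbers are not taken as pairs. Of 659 comparisons of single named genes with the reported value, 564 kept direction and side of the threshold, 54 lost a call, 31 gained one and 10 turned sign. Probes near background, such as Mr1 and H2-M10.1, limit what can be said of faint members.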
